A study of Mus musculus with 24 samples.

Results

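The 31 genes described here make cholesterol, sense and move it, or belong to the fatty acid enzymes that answer to the same regulators. They were chosen by name, from the probe sets whose annotation gives 1 of these gene symbols and no other. Of the 31 genes, 29 had a probe set, 63 probe sets in all, out of 18193 genes and 45037 probe sets on the arrays. Acat2 and Soat1 are named only. A probe set was tested where its log2 value was at least 4 on at least 6 of the arrays compared, a limit set to leave out dim signals. It was reached by 48 of the 63 probe sets and by 28 of the 29 genes. Each gene is given by its brightest probe set, ranked by the mean of all 24 arrays.

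RNA was measured in cerebral cortex, dissected at postnatal day 7 from male mice of the FVB strain that lacked Fmr1 (Fmr1 KO) or were wild type (WT) littermates. Fmr1 encodes FMRP, an RNA-binding protein found on polyribosomes. White matter had been removed, and the cortices of 2 mice of 1 genotype were pooled for each of 6 lysates per genotype. Each lysate gave a pair of arrays. Polyribosomal RNA came from sucrose gradient fractions 10 to 13, where an mRNA carries at least 6 ribosomes, and total RNA from the 20% of the cleared lysate kept back from the gradient. The 4 groups of 6 arrays were thus Fmr1 KO polyribosomal, Fmr1 KO total, WT polyribosomal and WT total RNA.

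Cells build cholesterol from acetyl-CoA in a long chain of enzymes. The mevalonate pathway first makes farnesyl diphosphate, which is also the source of ubiquinone, dolichol and the lipid anchors of many proteins. Joining of farnesyl units gives squalene, and oxidation, ring closure and trimming of the ring give cholesterol. Most of these genes are targets of SREBP transcription factors, which the Scap protein carries out of the endoplasmic reticulum when sterol is low and which the Insig proteins hold back when it is high. The brain makes its own cholesterol, since that of the blood does not cross the blood-brain barrier, and around the first postnatal weeks neurons, astrocytes and later the myelinating cells need much of it.

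The DNA just before the start of these genes holds short motifs known from the regulation of this pathway: the sterol regulatory element bound by SREBPs, and the CCAAT and GC boxes bound by their partner factors. Windows were taken from RefSeq (mouse GRCm38.p6) and were held for 25 of the 31 genes. The motifs named here were searched on both strands in the 250 bases before the start. Some genes have several windows, and a gene was counted where any of them held the motif. The sterol regulatory element TCACNCCAC was found in 1 of the 25 genes, Hmgcs1, a share of 4.00%, and in 1.22% of all 27025 genes with a window. Its shorter core CACNCCAC, which lies within the longer motif, was found in Acat2, Hmgcs1 and Insig1, a share of 12%, and in 6.05% of all genes. The CCAAT box was found in 21 of 25, or 84.0%, and in 37.5% of all genes. The GC box GGGCGG was also found in 21 of 25, and in 35.4% of all genes. Counted by window, the CCAAT box was in 62.9% of the 35 windows of these genes and in 33.8% of all 32851. By the same count the GC box was in 68.6% and 32.7%. Many of the genes with a window are not active in cortex. Among the genes tested here, the CCAAT box was in 19 of 22 of the sterol genes with a window, or 86.4%, and in 40.6% of all 8114, and the GC box in 86.4% and 66.6%. The sterol element core was in 2 of these 22, or 9.09%, and in 6.63% of the 8114, since Acat2 has no probe set here. The matches are letters in a window and were not tested as binding sites.

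The 3 genes with the core motif are shown with the match in capitals and up to 10 bases on each side, read along the gene's own strand. Where the capitals read GTGG, the motif lies on the opposite strand.
Hmgcs1, chr13:119690204-119690232, plus strand, 137 to 129 bases before the start: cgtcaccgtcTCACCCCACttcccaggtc
Acat2, chr17:12960889-12960916, minus strand, 181 to 174 bases before the start: ggatcctccaCACCCCACcctaacccga
Acat2, chr17:12960761-12960788, minus strand, 53 to 46 bases before the start: gtgaggaggcGTGGCGTGgaggccatag
Insig1, chr5:28071393-28071411, plus strand, 9 to 2 bases before the start: gtgtagtgtcGTGGCGTGt

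Whole windows are printed for Hmgcs1, with the only full sterol element, and for Nsdhl, the gene with the smallest genotype p below. Capitals mark the sterol element, the CCAAT boxes (CCAAT, or ATTGG on the opposite strand) and the GC boxes (GGGCGG, or CCGCCC).
Hmgcs1, chr13:119690101-119690350, plus strand: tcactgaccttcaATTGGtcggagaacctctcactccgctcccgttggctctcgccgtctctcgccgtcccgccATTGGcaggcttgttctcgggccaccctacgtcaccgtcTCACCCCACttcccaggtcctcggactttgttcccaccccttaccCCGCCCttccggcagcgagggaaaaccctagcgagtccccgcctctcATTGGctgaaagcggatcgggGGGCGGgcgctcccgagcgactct
Nsdhl, chrX:72918271-72918520, plus strand: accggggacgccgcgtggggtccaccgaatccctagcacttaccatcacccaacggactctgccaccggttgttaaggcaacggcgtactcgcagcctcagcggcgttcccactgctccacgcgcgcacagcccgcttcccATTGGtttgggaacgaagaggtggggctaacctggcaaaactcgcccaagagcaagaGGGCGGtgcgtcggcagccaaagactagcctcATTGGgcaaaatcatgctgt

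The genotype labels were checked with Fmr1, whose brightest probe set fell by 3.71 on the log2 scale in Fmr1 KO polyribosomal RNA and by 3.28 in Fmr1 KO total RNA, with no overlap of the groups (two-sided exact permutation p = 0.00216 each, the smallest that 6 against 6 arrays allow). Between 38.8% and 40.0% of probe sets reached the limit on an array. Markers of excitatory neurons, interneurons and astrocytes were measured in every group. The oligodendrocyte genes Mag and Mog and the microglial genes C1qa, Itgam, P2ry12 and Tmem119 lay below the limit on all arrays. The WT polyribosomal array of number 4 had the lowest median correlation with its group, 0.9925. In tissue RNA, fewer cells of a type and less RNA per cell cannot be told apart.

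The first pair of comparisons set polyribosomal against total RNA of the same lysates. More of the sterol genes were enriched in heavy polyribosomes than depleted, in both genotypes. The same held over all genes, with 38.7% higher and 28.2% lower in Fmr1 KO and 37.5% and 28.4% in WT. Both ends of the range of the sterol genes were held by enzymes. The mevalonate enzyme gene Pmvk and the late enzyme genes Ebp and Sc5d were among those enriched. Tm7sf2, a sterol reductase gene of the same pathway, was depleted more than 3-fold. The regulators split, with Scap and Srebf2 higher and both Insig genes lower. The values are relative to the other mRNAs on the same array, and mRNAs on fewer ribosomes were not in the pool.

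In Fmr1 KO lysates 14 of 28 genes were higher in polyribosomal RNA, 5 were lower and 9 did not pass (limma, adjusted p under 0.05). Over all 9700 genes, 38.7% were higher and 28.2% lower. The median difference of the 28 was 0.21 on the log2 scale, and that of all genes 0.09. In WT lysates 12 of 28 were higher, 5 lower and 11 not past the threshold, against 37.5% higher and 28.4% lower of 9725 genes. The WT median was 0.19, and that of all genes 0.09. A share of 50.0% or 42.9% higher thus stands beside a background in which most genes moved one way or the other. The 2 RNA kinds did not overlap for 9 higher and 4 lower genes in Fmr1 KO, where 24.1% and 18.1% of all genes did so, and for 8 higher and 4 lower in WT, where the shares were 21.8% and 18.3%. The 18 enzymes of sterol synthesis had 17 measured, of which 10 were higher and 1 lower in Fmr1 KO, and 8 were higher and 1 lower in WT.

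**Figure D1:**
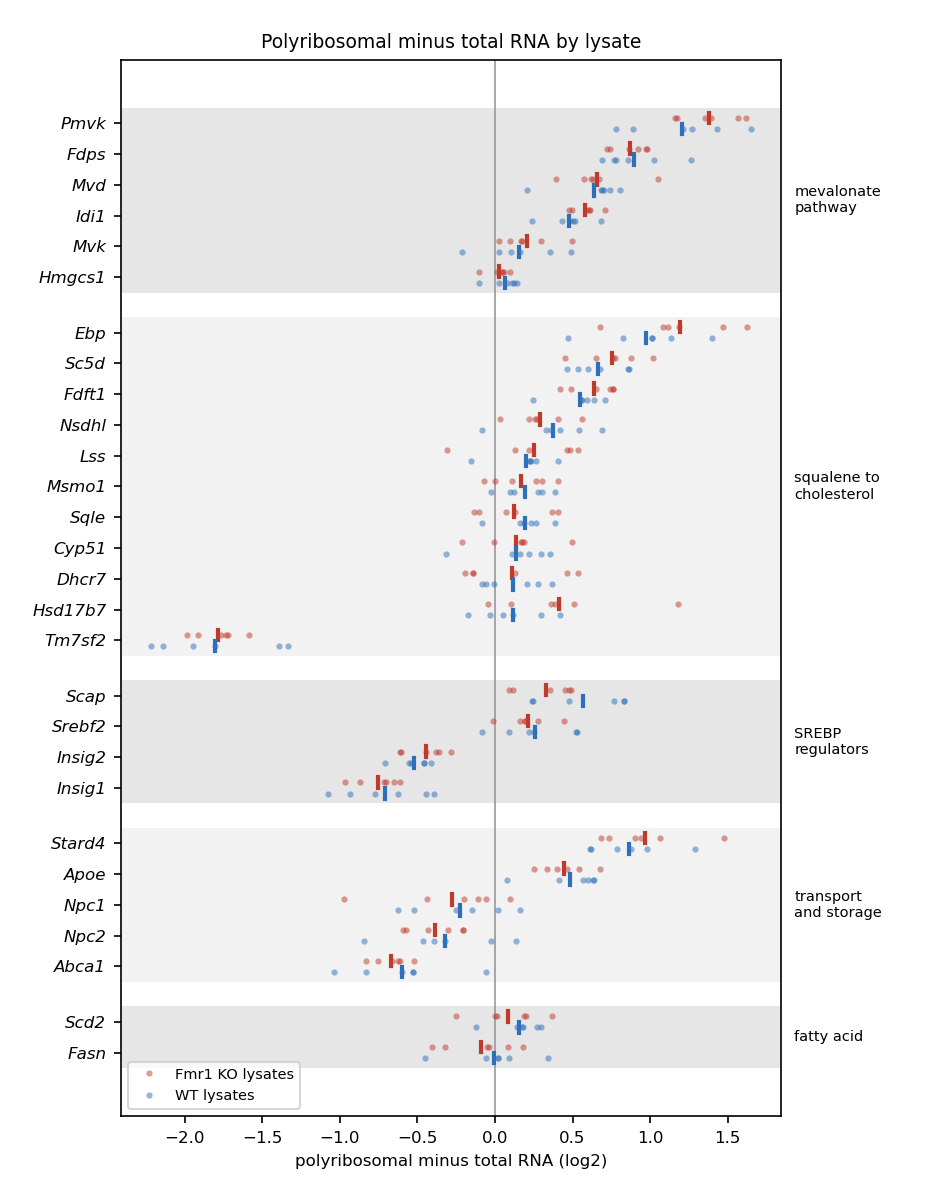
Polyribosomal minus total RNA on the log2 scale (x axis) for the 28 genes tested, grouped by role. Each point is 1 lysate (red above, Fmr1 KO; blue below, WT) and each vertical bar the mean of 6. Pmvk lies furthest to the right, with means of 1.38 in Fmr1 KO and 1.21 in WT, and Tm7sf2 furthest to the left, with -1.78 in Fmr1 KO and -1.81 in WT.

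The mevalonate enzymes came first in the pathway, and none of the 6 measured was lower. Pmvk, the kinase that makes mevalonate diphosphate, had a lowest, median and highest log2 value of 9.97, 10.21 and 10.47 in Fmr1 KO polyribosomal RNA, against 8.77, 8.83 and 8.85 in Fmr1 KO total RNA. The WT values of Pmvk were 9.67, 10.04 and 10.64 in polyribosomal RNA, against 8.70, 8.87 and 8.99 in total RNA. Every polyribosomal array was above every total array in both genotypes. The log2 difference of Pmvk was 1.38 in Fmr1 KO (SE 0.09, adjusted p = 2.21e-07, 2.60-fold) and 1.21 in WT (SE 0.12, adjusted p = 5.11e-06, 2.31-fold). Of all genes, 99.6% had a smaller value in Fmr1 KO and 99.4% in WT.

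Fdps, which makes farnesyl diphosphate, stood at 11.16, 11.59 and 11.84 (lowest, median, highest) in Fmr1 KO polyribosomal RNA, against 10.17, 10.64 and 11.10 in Fmr1 KO total RNA. In WT Fdps stood at 11.39, 11.57 and 11.91 in polyribosomal RNA, against 10.42, 10.67 and 11.07 in total RNA. The groups again did not overlap in either genotype. Fdps rose by 0.87 in Fmr1 KO (SE 0.08, adjusted p = 2.50e-06) and by 0.90 in WT (SE 0.09, adjusted p = 1.00e-05), and its 6 lysate differences ran only between 0.72 and 0.98 in Fmr1 KO.

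Mvd is the decarboxylase that yields isopentenyl diphosphate. It had 8.12, 8.34 and 8.55 in Fmr1 KO polyribosomal RNA, against 7.36, 7.69 and 7.92 in Fmr1 KO total RNA. The WT arrays gave 7.98, 8.34 and 8.49 in polyribosomal RNA, against 7.47, 7.64 and 7.80 in total RNA. Neither genotype had overlapping groups, and the differences were 0.66 in Fmr1 KO (SE 0.09, adjusted p = 7.44e-05) and 0.64 in WT (SE 0.10, adjusted p = 0.000131). Idi1, the isomerase that follows, had 11.62, 11.83 and 12.04 in Fmr1 KO polyribosomal RNA, against 11.02, 11.26 and 11.41 in Fmr1 KO total RNA. Its WT values were 11.58, 11.71 and 11.98 in polyribosomal RNA, against 11.18, 11.27 and 11.34 in total RNA. Idi1 was thus higher on all polyribosomal arrays, by 0.58 in Fmr1 KO (SE 0.08, adjusted p = 3.77e-05) and 0.48 in WT (SE 0.08, adjusted p = 0.000453).

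Mvk, mevalonate kinase, had overlapping groups, with 5.95, 6.12 and 6.50 in Fmr1 KO polyribosomal RNA, against 5.78, 5.96 and 6.08 in Fmr1 KO total RNA. The WT values of Mvk were 5.63, 6.08 and 6.49 in polyribosomal RNA, against 5.80, 5.94 and 6.00 in total RNA. The Fmr1 KO difference of 0.21 passed narrowly (SE 0.08, adjusted p = 0.0465) and the WT difference of 0.15 did not (SE 0.10, adjusted p = 0.201). The difference between genotypes did not pass, and leaving out number 1, 2, 4, 5 or 6 took the Fmr1 KO call away (adjusted p up to 0.123), as did an eBayes trend with a robust prior (0.0746) and 1 fit of all 24 arrays (0.0525). A second probe set of Mvk passed in both, at 0.25 in Fmr1 KO (adjusted p = 0.0267) and 0.33 in WT (adjusted p = 0.0160). Hmgcs1, the cytosolic HMG-CoA synthase with the sterol element printed above, had 0.03 in Fmr1 KO (SE 0.07) and 0.06 in WT (SE 0.08), neither past the threshold, and the lysates lay between -0.10 and 0.14.

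The enzymes from squalene to cholesterol were 11, all measured. Fdft1, squalene synthase, stood at 11.47, 11.76 and 11.80 in Fmr1 KO polyribosomal RNA, against 10.98, 11.03 and 11.14 in Fmr1 KO total RNA. WT arrays of Fdft1 gave 11.45, 11.65 and 11.81 in polyribosomal RNA, against 10.94, 11.09 and 11.22 in total RNA. The RNA kinds were fully apart in both genotypes, with differences of 0.64 in Fmr1 KO (SE 0.08, adjusted p = 3.67e-05) and 0.55 in WT (SE 0.09, adjusted p = 0.000197).

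Ebp, the sterol isomerase gene, had 6.70, 6.90 and 7.19 in Fmr1 KO polyribosomal RNA, against 5.44, 5.73 and 6.02 in Fmr1 KO total RNA. The WT arrays of Ebp gave 6.42, 6.77 and 6.95 in polyribosomal RNA, against 5.42, 5.78 and 6.07 in total RNA. No array of one RNA kind reached into the other, and Ebp rose by 1.19 in Fmr1 KO (SE 0.11, adjusted p = 4.12e-06, 2.28-fold) and by 0.98 in WT (SE 0.11, adjusted p = 2.02e-05, 1.97-fold). Sc5d, the desaturase that acts late in the ring, had 8.05, 8.36 and 8.45 in Fmr1 KO polyribosomal RNA, against 7.38, 7.58 and 7.71 in Fmr1 KO total RNA. Its WT values were 8.08, 8.26 and 8.38 in polyribosomal RNA, against 7.43, 7.54 and 7.72 in total RNA. Sc5d rose by 0.76 in Fmr1 KO (SE 0.09, adjusted p = 1.89e-05) and by 0.67 in WT (SE 0.09, adjusted p = 5.04e-05), again without overlap. Its other probe set did not pass, at 0.19 in Fmr1 KO and 0.18 in WT.

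Nsdhl, a dehydrogenase that takes methyl groups off the ring, was also higher in the pool, though its groups overlapped. It stood at 8.87, 9.20 and 9.34 in Fmr1 KO polyribosomal RNA, against 8.78, 8.84 and 8.96 in Fmr1 KO total RNA, a difference of 0.29 (SE 0.09, adjusted p = 0.0107). In WT it stood at 9.04, 9.54 and 9.76 in polyribosomal RNA, against 8.995, 9.13 and 9.23 in total RNA, a difference of 0.38 (SE 0.10, adjusted p = 0.00747). The lowest WT polyribosomal value, from number 4, lay below most of the WT total arrays. Hsd17b7, the ketoreductase of the same step, had 5.78, 6.27 and 7.03 in Fmr1 KO polyribosomal RNA, against 5.76, 5.89 and 6.09 in Fmr1 KO total RNA. The WT values were 5.78, 6.09 and 6.40 in polyribosomal RNA, against 5.80, 5.97 and 6.18 in total RNA. The groups overlapped, and the highest Fmr1 KO polyribosomal value came from number 1, whose lysate difference was 1.18. The difference passed in Fmr1 KO, at 0.42 (SE 0.14, adjusted p = 0.0178), and did not pass in WT, at 0.11 (SE 0.09, adjusted p = 0.311). A second probe set of Hsd17b7 passed in both, at 0.44 in Fmr1 KO (adjusted p = 0.00211) and 0.37 in WT (adjusted p = 0.00589). Its total RNA values lay about the limit of 4, at 3.90 to 4.09 in Fmr1 KO and 3.82 to 4.16 in WT. These differences thus rest on dim total values.

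Tm7sf2, a sterol C14 reductase whose step can also be taken by the lamin B receptor, was the enzyme that went the other way. Its log2 values were 5.20, 5.25 and 5.56 in Fmr1 KO polyribosomal RNA, against 6.94, 7.05 and 7.30 in Fmr1 KO total RNA. In WT they were 4.96, 5.43 and 5.65 in polyribosomal RNA, against 6.98, 7.09 and 7.48 in total RNA. Every polyribosomal array was below every total array by a wide gap. The difference was -1.78 in Fmr1 KO (SE 0.08, adjusted p = 2.11e-08, 3.45-fold) and -1.81 in WT (SE 0.13, adjusted p = 4.70e-07, 3.5-fold). Only 1.61% of genes in Fmr1 KO and 1.67% in WT had a lower value.

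The other 5 enzymes did not pass in either genotype, and their differences were all above 0. Lss, which closes the sterol ring, stood at 0.25 in Fmr1 KO and 0.20 in WT. Msmo1, a methyl oxidase, stood at 0.17 in Fmr1 KO and 0.19 in WT. Sqle, squalene epoxidase, stood at 0.12 in Fmr1 KO and 0.19 in WT. Sqle acts before ring closure and Msmo1 after it. Cyp51, a demethylase, stood at 0.13 in Fmr1 KO and 0.14 in WT. Dhcr7, which can take the last step to cholesterol, stood at 0.11 in Fmr1 KO and 0.12 in WT. The adjusted p of Lss was 0.0639 in Fmr1 KO and 0.0708 in WT, and its second probe set passed, at 0.44 in Fmr1 KO (adjusted p = 0.00300) and 0.47 in WT (adjusted p = 0.00943). Without the number 4 lysate, Lss, Msmo1, Sqle and Cyp51 passed in WT, at 0.27, 0.24, 0.25 and 0.23. Without number 5, Lss and Msmo1 passed in Fmr1 KO, at 0.37 and 0.22.

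**Figure D2:**
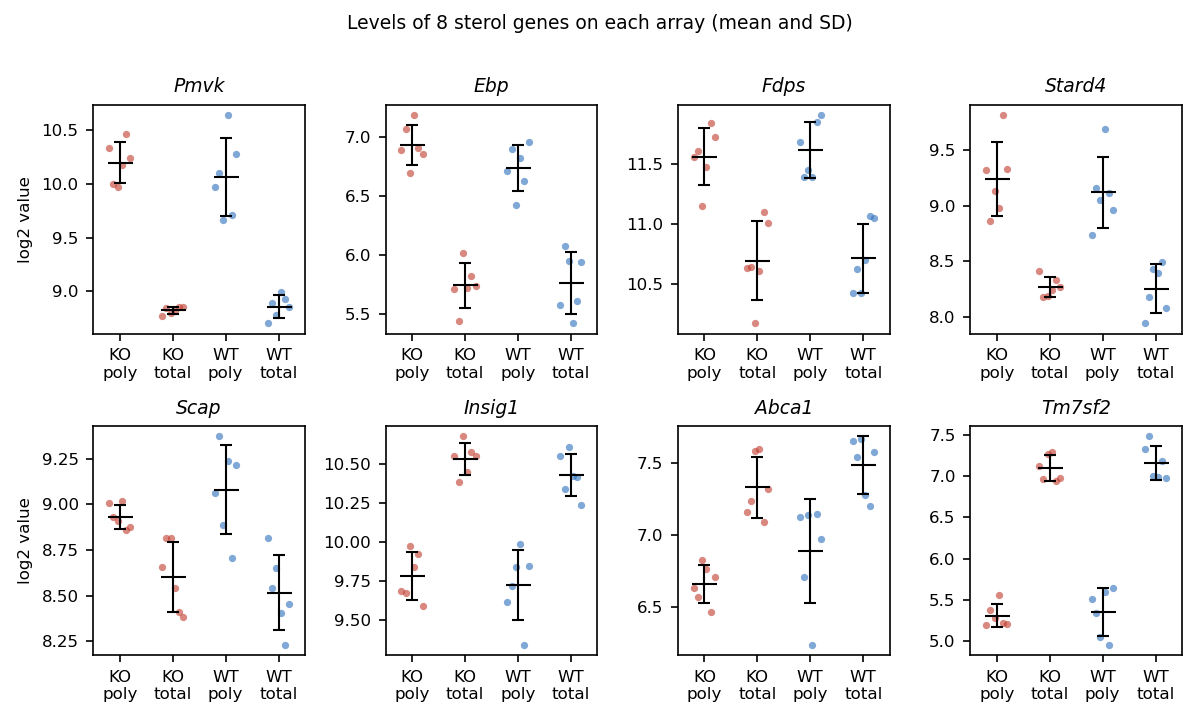
Log2 values (y axis, scaled separately in each panel) of 8 sterol genes on every array, by group, with mean and SD of 6. Polyribosomal arrays lie above total arrays for Pmvk, Ebp, Fdps and Stard4 and below them for Insig1, Abca1 and Tm7sf2, in both genotypes. For Scap they lie above in Fmr1 KO and overlap in WT.

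The regulators fell on both sides. Scap, the sterol sensor that escorts SREBP, had 8.86, 8.92 and 9.02 in Fmr1 KO polyribosomal RNA, against 8.38, 8.60 and 8.82 in Fmr1 KO total RNA. The WT arrays of Scap gave 8.71, 9.14 and 9.37 in polyribosomal RNA, against 8.23, 8.50 and 8.82 in total RNA. Scap was higher in 6 of 6 lysates of each genotype, by 0.33 in Fmr1 KO (SE 0.09, adjusted p = 0.00552) and by 0.56 in WT (SE 0.11, adjusted p = 0.000733). Srebf2, the SREBP gene most tied to cholesterol synthesis, had 6.84, 7.08 and 7.33 in Fmr1 KO polyribosomal RNA, against 6.68, 6.93 and 7.04 in Fmr1 KO total RNA. Its WT values were 6.73, 7.12 and 7.49 in polyribosomal RNA, against 6.72, 6.89 and 6.97 in total RNA. The groups overlapped, and the calls were narrow, at 0.21 in Fmr1 KO (SE 0.08, adjusted p = 0.0399) and 0.26 in WT (SE 0.10, adjusted p = 0.0394). Leaving out number 2, 3, 4 or 6 ended the call in Fmr1 KO (adjusted p up to 0.149) and number 1, 2, 3 or 6 in WT (up to 0.127). The eBayes trend with a robust prior ended both (adjusted p = 0.0660 and 0.0533), and 1 fit of all 24 arrays that in Fmr1 KO (0.0752). The second probe set of Srebf2 passed in both, at 0.27 in Fmr1 KO (adjusted p = 0.0191) and 0.46 in WT (adjusted p = 0.00443).

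Insig1 and Insig2 encode the proteins that keep Scap in the endoplasmic reticulum. Insig1 stood at 9.59, 9.76 and 9.97 in Fmr1 KO polyribosomal RNA, against 10.39, 10.56 and 10.68 in Fmr1 KO total RNA. The WT values of Insig1 were 9.34, 9.78 and 9.99 in polyribosomal RNA, against 10.24, 10.42 and 10.61 in total RNA. With no overlap in either genotype, Insig1 fell by 0.76 in Fmr1 KO (SE 0.08, adjusted p = 8.89e-06) and by 0.71 in WT (SE 0.10, adjusted p = 0.000128). Insig2 stood at 7.87, 8.04 and 8.22 in Fmr1 KO polyribosomal RNA, against 8.35, 8.48 and 8.65 in Fmr1 KO total RNA. In WT Insig2 stood at 7.75, 7.92 and 8.14 in polyribosomal RNA, against 8.21, 8.40 and 8.65 in total RNA. Insig2 was lower on all polyribosomal arrays, by a difference of -0.45 in Fmr1 KO (SE 0.08, adjusted p = 0.000454) and -0.52 in WT (SE 0.08, adjusted p = 0.000162). Both of its other probe sets were lower too. Srebf1, the SREBP gene more tied to fatty acids, was not tested, with values of 3.68 to 3.88 in Fmr1 KO polyribosomal RNA and 3.66 to 4.13 in WT polyribosomal RNA, since too few arrays reached the limit.

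Of the genes for sterol transport, Stard4 and Apoe were higher and Abca1 and Npc2 lower. Stard4, a carrier of cholesterol between membranes, had 8.86, 9.22 and 9.81 in Fmr1 KO polyribosomal RNA, against 8.18, 8.26 and 8.41 in Fmr1 KO total RNA. The WT arrays of Stard4 gave 8.74, 9.08 and 9.69 in polyribosomal RNA, against 7.95, 8.29 and 8.49 in total RNA. Without overlap, Stard4 rose by 0.97 in Fmr1 KO (SE 0.11, adjusted p = 1.06e-05) and by 0.86 in WT (SE 0.10, adjusted p = 2.37e-05). Apoe, the lipoprotein that astrocytes load with cholesterol, had 11.23, 11.62 and 11.70 in Fmr1 KO polyribosomal RNA, against 10.89, 11.02 and 11.45 in Fmr1 KO total RNA. Its WT values were 11.17, 11.67 and 11.89 in polyribosomal RNA, against 10.87, 11.16 and 11.32 in total RNA. The groups of Apoe overlapped across lysates, yet it was higher in 6 of 6 lysates of each genotype, by 0.45 in Fmr1 KO (SE 0.08, adjusted p = 0.000558) and 0.49 in WT (SE 0.10, adjusted p = 0.000888).

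Abca1, the pump that hands cholesterol to lipoproteins, stood at 6.46, 6.67 and 6.82 in Fmr1 KO polyribosomal RNA, against 7.09, 7.27 and 7.60 in Fmr1 KO total RNA. In WT Abca1 stood at 6.24, 7.05 and 7.14 in polyribosomal RNA, against 7.20, 7.56 and 7.66 in total RNA. The groups did not overlap, and Abca1 fell by 0.67 in Fmr1 KO (SE 0.08, adjusted p = 1.66e-05) and by 0.60 in WT (SE 0.12, adjusted p = 0.000928). Npc2, a lysosomal cholesterol carrier, had 8.21, 8.61 and 8.94 in Fmr1 KO polyribosomal RNA, against 8.80, 8.95 and 9.16 in Fmr1 KO total RNA. The WT arrays of Npc2 gave 8.14, 8.54 and 8.94 in polyribosomal RNA, against 8.72, 8.89 and 9.10 in total RNA. The groups overlapped, with differences of -0.38 in Fmr1 KO (SE 0.09, adjusted p = 0.00197) and -0.32 in WT (SE 0.12, adjusted p = 0.0351). The WT call of Npc2 was lost without number 1, 2, 3 or 5 (adjusted p up to 0.119) without the filter on dim probe sets (adjusted p = 0.0529) or with each array centred on its median (0.0558), while its second probe set passed in both genotypes. Npc1, its membrane partner, did not pass, at -0.28 in Fmr1 KO and -0.23 in WT, but passed without number 2 in Fmr1 KO (-0.36) and without number 6 in WT (-0.31).

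Both fatty acid enzymes stayed short of the threshold. Scd2, the stearoyl-CoA desaturase of brain, stood at 0.09 in Fmr1 KO and 0.16 in WT, and passed in WT at 0.21 without number 4. A further probe set of Scd2 had -0.23 in Fmr1 KO and 0.25 in WT, neither past the threshold. Fasn, fatty acid synthase, stood at -0.09 in Fmr1 KO and -0.01 in WT.

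Another 53 genes of sterol, fatty acid and isoprenoid metabolism were listed beside the 31. In Fmr1 KO 43 were tested, with 21 higher and 9 lower in polyribosomal RNA, where 38.7% of all genes were higher and 28.2% lower. In WT 42 were tested, with 19 higher and 10 lower, where 37.5% of all genes were higher and 28.4% lower. The median was 0.20 in each genotype, beside 0.09 over all genes. The largest WT rises were those of Fads2, a fatty acid desaturase, at 1.00 in Fmr1 KO and 0.94 in WT, the nuclear receptor gene Rxrb at 0.99 in Fmr1 KO and 0.92 in WT, and the oxysterol-binding protein gene Osbp at 0.83 in each. The largest WT falls were those of Coq2, of ubiquinone synthesis, at -1.03 in Fmr1 KO and -1.17 in WT, Nus1, of dolichol synthesis, at -0.81 in Fmr1 KO and -1.03 in WT, and the desaturase gene Scd1 at -0.96 in Fmr1 KO and -0.84 in WT. Genes that draw on farnesyl diphosphate or finish the pathway fell on both sides, with 4 higher and 3 lower of 8 in Fmr1 KO and 4 higher and 4 lower in WT.

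Cell type markers also differed between the RNA kinds, on both sides, and their counts are to be read against the 38.7% higher and 28.2% lower of all genes in Fmr1 KO and the 37.5% and 28.4% in WT. Of 9 astrocyte markers, 4 were higher and none lower in Fmr1 KO, and 4 were higher and 1 lower in WT. Their summed linear signal ran over 6224 to 10270 in Fmr1 KO polyribosomal RNA, against 6205 to 9121 in Fmr1 KO total RNA, and over 6475 to 11090 in WT polyribosomal RNA, against 6210 to 8234 in WT total RNA. Of 6 oligodendrocyte lineage markers tested, 3 were higher and 1 lower in each genotype. Over all 24 arrays, 7 oligodendrocyte lineage markers reached the limit. The sums of these 7 were 3498 to 6106 in Fmr1 KO polyribosomal RNA, against 2314 to 4012 in Fmr1 KO total RNA. In WT the sums were 3662 to 6638 in polyribosomal RNA, against 2667 to 3980 in total RNA. Of 8 interneuron markers, 1 was higher and 4 were lower in each genotype, and of 2 microglial markers tested 1 was lower and none higher. Both RNA kinds came from the same lysates. The part of these markers in the differences of the sterol genes was not tested.

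The differences of the 28 genes varied together in the genotypes. Fmr1 KO and WT lysates are separate mice, so the sets of differences share no array. Across the 28 genes, Pearson's r between the Fmr1 KO and WT differences was 0.987 and Spearman's rho 0.956. Across 9647 genes of all kinds r was 0.979 and rho 0.97. These are correlations across genes, which are not independent replicates. Of the 28, 17 were called in the same direction in both, 2 in Fmr1 KO alone, Mvk and Hsd17b7, and 9 in neither. The median gap between the genotypes was 0.067 and the widest 0.303, that of Hsd17b7.

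The second question was whether the loss of Fmr1 changed the level of these genes. Across both RNA kinds none of the 28 passed, and at the brightest probe sets the 95% intervals of all but Nsdhl covered 0. Nsdhl stood furthest from WT in total RNA, with lower values in Fmr1 KO. In polyribosomal RNA 0 of 28 passed with limma, where 0.0103% of 9664 genes passed, and 1 of 28 had an unadjusted p under 0.05, where 2.22% of all genes had one. In total RNA 0 of 28 passed, where 0.0413% of 9690 genes passed, and again 1 of 28 had an unadjusted p under 0.05, where 5.05% had one. The median difference was 0.02 in polyribosomal and -0.02 in total RNA, beside 0.01 and -0.01 over all genes. The 95% interval of a gene reached 0.262 to either side in polyribosomal RNA and 0.155 in total RNA, as medians over the 28. These intervals are unadjusted, and at a gene of median width a smaller difference could not be told from 0. Larger differences could still fail after adjustment over all probe sets, as that of Nsdhl did. Over all 48 probe sets tested in polyribosomal RNA, 2 had an unadjusted p under 0.05, that of Nsdhl and a dimmer one of Scd2. This probe set of Scd2 had 7.75, 8.13 and 8.62 in Fmr1 KO, against 7.67, 8.76 and 9.05 in WT. The groups overlapped, and its difference of -0.49 (95% interval -0.94 to -0.04, adjusted p = 0.9999) was larger than that of Nsdhl, while the brightest probe set of Scd2 stood at -0.10.

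Nsdhl had the smallest p in both RNA kinds. Its total RNA values were 8.78, 8.84 and 8.96 (lowest, median, highest) in Fmr1 KO, against 8.995, 9.13 and 9.23 in WT. The 6 Fmr1 KO arrays were all below the 6 WT arrays, as for 0.206% of genes. Any pairing of the arrays, by number or otherwise, is then lower in Fmr1 KO and adds nothing to this. The means were 8.85 ± 0.07 in Fmr1 KO and 9.13 ± 0.09 in WT (SD, n = 6 each). The difference of -0.28 (SE 0.056, 95% interval -0.40 to -0.16) did not pass (limma adjusted p = 0.259), although only 6 of 9690 genes had a smaller p. In polyribosomal RNA Nsdhl had 8.87, 9.20 and 9.34 in Fmr1 KO, against 9.04, 9.54 and 9.76 in WT. Here the groups overlapped, because the WT array of number 4 lay at 9.04, and 5 of 6 pairs were lower in Fmr1 KO. The difference of -0.37 (SE 0.126, adjusted p = 0.9999) became -0.48 without number 4 (adjusted p = 0.650). Nsdhl lies on the X chromosome, as Fmr1 does, with 26 protein-coding genes between them in GRCm38.p6. Ebp, the other X-linked gene of the 28, is 331 protein-coding genes away.

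**Figure D3:**
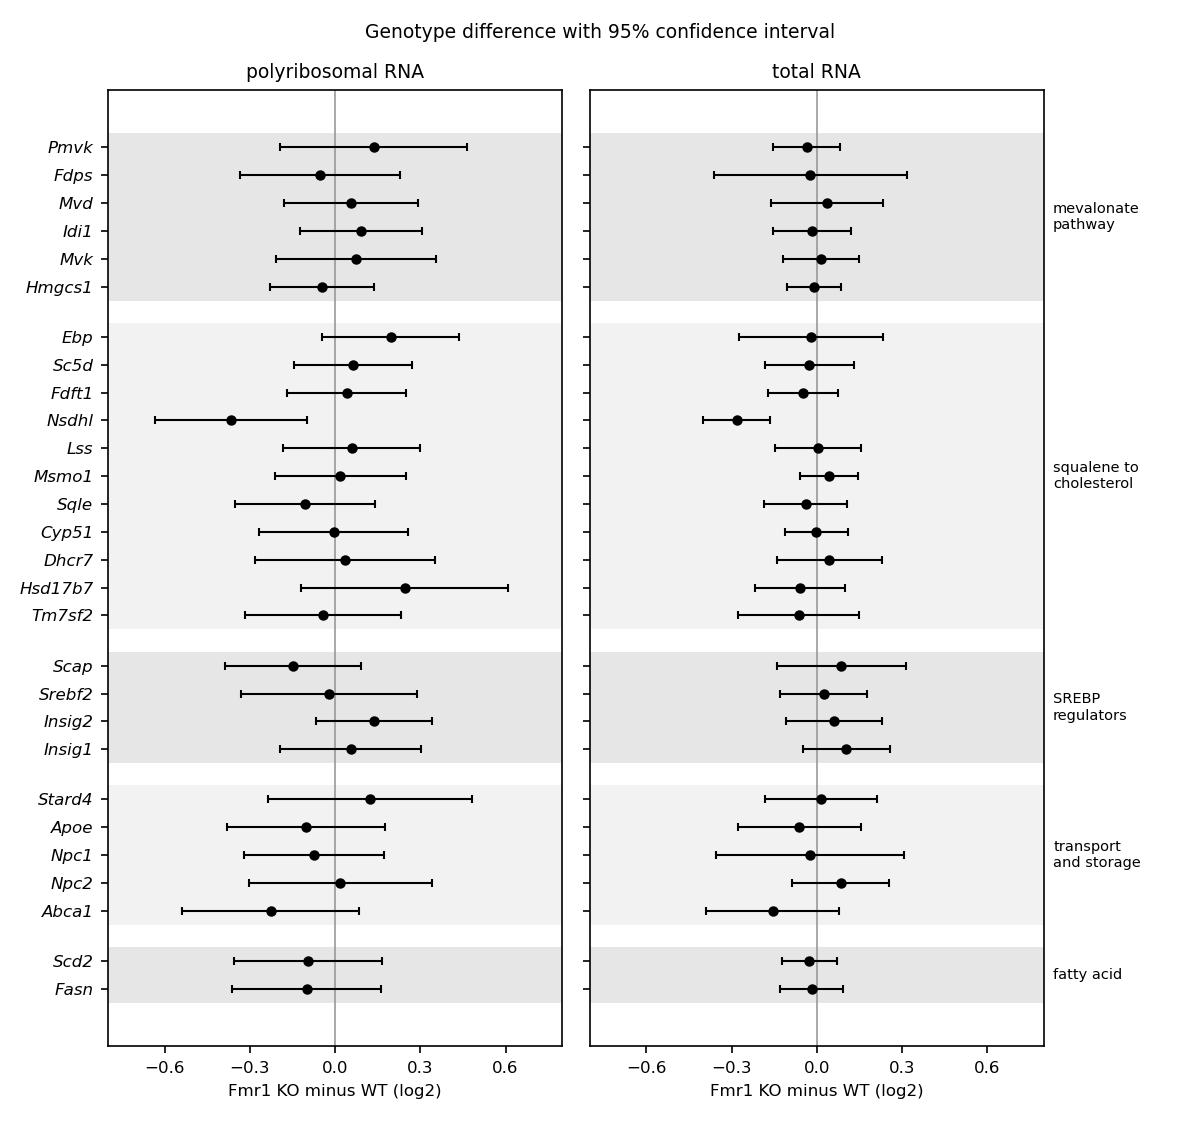
Fmr1 KO minus WT on the log2 scale (x axis) in polyribosomal RNA (left) and total RNA (right) for the 28 genes, with the 95% interval. The intervals cover 0 except that of Nsdhl, which lies at -0.37 in polyribosomal and -0.28 in total RNA. Neither passed after adjustment over all probe sets.

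The next smallest p values in polyribosomal RNA were those of Ebp and Abca1. Ebp had 6.70, 6.90 and 7.19 in Fmr1 KO, against 6.42, 6.77 and 6.95 in WT, a difference of 0.20 (95% interval -0.05 to 0.44, limma adjusted p = 0.9999). Abca1 had 6.46, 6.67 and 6.82 in Fmr1 KO, against 6.24, 7.05 and 7.14 in WT, a difference of -0.23 (95% interval -0.54 to 0.08, limma adjusted p = 0.9999). Both pairs of groups overlapped, and the lowest WT value of Abca1 came from number 4. In total RNA Insig1 and Abca1 followed Nsdhl. Insig1 had 10.39, 10.56 and 10.68 in Fmr1 KO, against 10.24, 10.42 and 10.61 in WT, a difference of 0.10 (95% interval -0.05 to 0.26, limma adjusted p = 0.998). All 6 same-numbered pairs were higher in Fmr1 KO, but number 1 only by 10.557 against 10.553. The labels do not say that the number marks a pair. Abca1 had 7.09, 7.27 and 7.60 in Fmr1 KO, against 7.20, 7.56 and 7.66 in WT, a difference of -0.16 (95% interval -0.39 to 0.08, limma adjusted p = 0.998). These ranges overlapped too.

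The last comparison asked whether the polyribosomal share of a gene differed between genotypes, by setting the 6 lysate differences of Fmr1 KO against the 6 of WT. With limma 0 of 28 genes passed, as 0% of 9955 genes did, and 0 of 28 had an unadjusted p under 0.05, where 2.34% of all genes had one. The 95% interval reached 0.277 to either side as a median. Hsd17b7 had the smallest p, with lysate differences of -0.04, 0.37 and 1.18 (lowest, median, highest) in Fmr1 KO, against -0.17, 0.09 and 0.42 in WT. The gap of 0.30 (95% interval -0.07 to 0.67, limma adjusted p = 0.999) fell within the spread of the lysates. Scap had 0.09, 0.40 and 0.49 in Fmr1 KO, against 0.24, 0.62 and 0.83 in WT, a gap of -0.23 (95% interval -0.53 to 0.06, limma adjusted p = 0.999). Ebp had 0.68, 1.15 and 1.62 in Fmr1 KO, against 0.47, 1.01 and 1.40 in WT, a gap of 0.22 (95% interval -0.14 to 0.57, limma adjusted p = 0.999). For all 3 the genotypes overlapped. Over all 48 probe sets, 1 had an unadjusted p under 0.05, a further one of Hsd17b7, with a gap of 0.31 (95% interval 0.03 to 0.58, adjusted p = 0.999). Every total RNA value of this probe set lay below the limit of 4, at 3.34 to 3.80 in Fmr1 KO and 3.70 to 3.90 in WT. It was tested only through its polyribosomal arrays, so its gap rests on dim total values and no result is drawn from it. The widest gap was that of the dimmer probe set of Scd2, at -0.48. Nsdhl, lower in Fmr1 KO in both RNA kinds, had a gap of -0.08 (95% interval -0.36 to 0.20). Of the other 53 pathway genes, 42 were tested in polyribosomal RNA, 42 in total RNA and 43 for the polyribosomal share. None passed between genotypes, where 0.0103%, 0.0413% and 0% of all genes did.

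Among the cell type markers none passed between genotypes either, but some values were not level. In polyribosomal RNA 8 of 9 astrocyte markers (median -0.14) and 6 of 6 oligodendrocyte lineage markers (median -0.10) were below 0 in Fmr1 KO minus WT. Of all 9664 genes, 4466 were. In total RNA 6 of 9 (median -0.06) and 6 of 7 (median -0.10) were, beside 5372 of 9690 genes. The 2 microglial markers tested in total RNA were lower in Fmr1 KO, Aif1 by a difference of -0.29 (adjusted p = 0.894) and C1qb by -0.28 (adjusted p = 0.982). Over all 24 arrays, 4 of the 8 microglial markers reached the limit. The summed linear signal of these 4 ran over 180.2 to 249.9 in Fmr1 KO total RNA, against 210.1 to 280.4 in WT. In polyribosomal RNA the differences were -0.04 for Aif1 and -0.06 for C1qb. Ttr, a choroid plexus gene, stood at -2.35 in polyribosomal RNA (SE 1.95) and -2.01 in total RNA (SE 1.90). Of 5 choroid plexus markers only 1, Ttr, reached the limit. Its linear signal varied widely among lysates, over 7.05 to 4528 in Fmr1 KO polyribosomal RNA, against 13.3 to 4686 in WT polyribosomal RNA. The part of these markers in the genotype values of the sterol genes, such as those of Nsdhl, was not tested.

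Fdps varied among lysates in a way that followed their number rather than their genotype. Its 2 highest arrays were those of numbers 5 and 6 in each of the 4 groups. In total RNA they stood at 11.10 and 11.01 in Fmr1 KO and at 11.07 and 11.05 in WT, while the other total arrays lay between 10.17 and 10.71. In polyribosomal RNA they stood at 11.84 and 11.73 in Fmr1 KO and at 11.85 and 11.91 in WT. There the other arrays came closer, at 11.16 to 11.61 in Fmr1 KO and 11.39 to 11.69 in WT. No other gene of the 28 had the same 2 highest numbers in all 4 groups, a share of 3.57%, and 0.784% of all 9955 genes had. The labels pair Fmr1 KO and WT littermates but do not say that the number marks the pair.

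**Figure D4:**
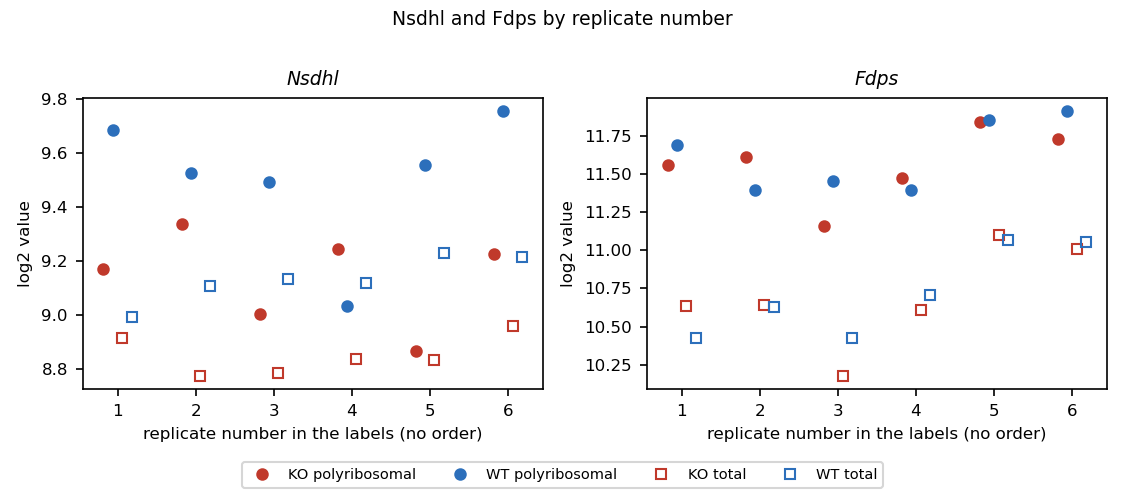
Log2 values (y axis) of Nsdhl (left) and Fdps (right) by the replicate number of the labels (x axis, which has no order), with filled points for polyribosomal and open squares for total RNA, red for Fmr1 KO and blue for WT. Nsdhl is lower in Fmr1 KO than in WT total RNA at every number, and its WT polyribosomal array of number 4 lies at 9.04. Fdps is highest at numbers 5 and 6 in each group.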

How the data were processed

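The authors made the values with GCRMA, per the submitters' processing notes, a method that subtracts background, equalizes arrays and sums probes into probe sets. Its version is not given in the sources used here. Judged from their range, the values the authors deposited are log2 values, and they were used unchanged.

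The limma package (3.58.1, R 4.3.3) was used for all differences (lmFit, eBayes, two-sided), with p values adjusted by Benjamini-Hochberg over all probe sets tested, at a threshold of 0.05. Polyribosomal against total RNA was fitted with the lysate as a block, because the labels' protocols take both from 1 lysate. Fmr1 KO against WT was fitted without a block. The difference between genotypes in polyribosomal share used the 12 lysate differences. The test was also run on simulated data in which every array varied independently. Such data hold no likeness between same-numbered arrays, so they cannot check the choice of block. Counts of genes use 1 probe set per gene. The probe sets named for Fdft1, Hsd17b7 and Mvd end in _x_at or _s_at and can bind related transcripts. Plots used matplotlib 3.10.9 (Python 3.11.15).

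Residuals of same-numbered Fmr1 KO and WT arrays correlated at 0.133 to 0.532 in total RNA, all 6 pairs above 0.1. This likeness comes from the data, and the labels do not say that the number marks a pair. The genotype p values and intervals given above are therefore unpaired, and the replicate block was run only as an alternative. Residuals of same-numbered polyribosomal and total arrays correlated at 0.156 to 0.474 in Fmr1 KO, all 6 above 0.1. In WT they correlated at 0.0211 to 0.525, with 4 of 6 above 0.1. Arrays carry no depth, and the number of arrays limits the precision. Alternatives were the limit for dim probe sets, normalization, the eBayes prior, the block, 1 fit of all 24 arrays, the mean over probe sets, and leaving out each number. The genes, the lists and the rule for the genes described in full (those past the threshold, or the 3 smallest p) were chosen with earlier results of these data known.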

Additional observations from a re-analysis of the deposited data

Results flagged for a closer look

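In 4 of 112 groups of 6 arrays, 1 array lay far from the others by Dixon's criterion at the 95% level, where chance gives about 5.6. Hmgcs1 was lowest on the Fmr1 KO polyribosomal array of number 5, at 13.18 against 13.34 to 13.40 on the others (gap over range 0.723). Npc1, a dim probe set, was highest on the Fmr1 KO total array of number 3, at 5.29 against 4.41 to 4.69 (0.674), and on the WT total array of number 1, at 5.31 against 4.49 to 4.78 (0.637). Nsdhl was lowest on the WT polyribosomal array of number 4, at 9.04 against 9.49 to 9.76 (0.636).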

How the results depend on the processing

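With 1 number left out at a time, the genes called higher in polyribosomal RNA were 12 to 15 in Fmr1 KO and 11 to 17 in WT, and those called lower 5 to 6 in Fmr1 KO and 4 to 6 in WT. The other alternatives gave 12 to 15 higher in Fmr1 KO and 11 to 15 in WT. None of these genes passed in a genotype comparison under any alternative run. For Nsdhl in total RNA the adjusted p ran from 0.184 with a limit of 6 to 0.99999 with all 24 arrays in 1 fit, and was 0.297 with the replicate block. Over genes and alternatives, no called difference changed sign; 15 of 391 in Fmr1 KO and 12 of 391 in WT lost their call and 7 and 19 gained one, those of Srebf2, Npc2 and Mvk being lost and those of Lss, Msmo1, Sqle, Scd2, Cyp51, Npc1, Hsd17b7 and Mvk gained. Differences past the threshold neither way changed sign 24 times of 390 between genotypes in polyribosomal and 34 of 388 in total RNA, 33 of 363 for the polyribosomal share, and 1 and 3 of 391 between RNA kinds in Fmr1 KO and WT. Without the replicate block, Lss gained a call in Fmr1 KO (adjusted p = 0.0349), Srebf2 lost its own (0.0802 in Fmr1 KO, 0.0933 in WT) and Mvk in Fmr1 KO (0.0666); with the block, no genotype call of these genes changed. In polyribosomal RNA same-numbered Fmr1 KO and WT residuals correlated at -0.137 upwards, 4 of 6 above 0.1. The cause of these shifts was not tested. Srebf1 lay too near the limit for dim probe sets to be tested.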
